A study of Canis lupus familiaris with 14 samples.

Results

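The interleukins and their receptors were taken as every gene on the canine array whose single annotated symbol begins with IL directly followed by a digit. This gave 78 genes of the 15115 with 1 symbol on the array, read by 119 probe sets, and 27 of the 78 had more than 1 probe set. By their symbols 34 are ligands, 40 are receptor chains and 4 are other proteins (the soluble inhibitors IL18BP, IL1RN and IL36RN, and the enzyme IL4I1). A gene value is the mean over its probe sets of the log2 MAS5 signal, a brightness scaled on each array, so levels are compared between arrays and not between genes.

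The 14 arrays hold lymph node aspirates from 10 companion dogs with lymphoma and from 3 normal dogs. B-cell lymphoma was the label of 7 dogs, FS21 (Pitt Bull Terrier/Lab. Retriever Mix), NE41 (Boxer/Pitt Bull Terr. Mix), NE42 (Labrador Retriever), RB03 (Pointer), RB07 and RB10 (Boxers) and RB16 (Chesapeake Bay Retriever). T-cell lymphoma was the label of 3 dogs, FS22 (Beagle), FS25 (Boxer) and NE45 (Golden Retriever). The normal nodes came from a Beagle breeding colony, with 1 node each from dogs 63 and 2970, while 3024l and 3024r are different nodes of 1 dog. All lymphomas were sampled before the trial drug, a PI3K inhibitor, and FS21, RB07, FS22 and FS25 had relapsed after chemotherapy. The ages of the dogs were not used here. Lymphomas and normals differ in breed and origin, and their array batches are not given, so neither can be told apart from disease. In an aspirate with many cell types, fewer cells of a type and less RNA per cell cannot be told apart.

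Interleukins are secreted signals through which leukocytes and tissue cells direct each other's growth, survival and activity. Most receptors are built from a chain that recognises 1 ligand and a chain shared by several, such as the common gamma chain IL2RG, gp130 (IL6ST) and IL1RAP. The IL-1 family and its receptors drive inflammation, and decoy receptors such as IL1R2 take up the ligand without passing on a signal. In lymph nodes, stromal cells make IL-7, which keeps naive T cells alive through IL7R.

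Median signal on an array was 85.5 to 130.9, and 47.2% to 55.7% of probe sets reached a signal of 100. The ratio of the 3′ to the 5′ GAPDH control probe set was 23.2 on 3024l and 3.30 to 8.94 on the other 13 arrays. The study drew 2 lymphoma classes from these profiles, E-J (FS21, NE41, NE42, RB03, RB16, FS22) and K-N (RB07, RB10, FS25, NE45), so they are described below without tests. The mean log2 signal of 11 T-cell markers was 9.22 to 10.4 in the normal arrays, 6.81 to 8.33 in class E-J and 10.9 to 11.2 in class K-N. For 8 B-cell markers it was 7.80 to 8.74, 8.14 to 9.62 and 3.88 to 6.92. By these means RB07 and RB10, labelled B-cell, and FS22, labelled T-cell, go against their labels. Single markers did not all do so. MS4A1 was 9.88 to 11.17 in the normals, and it was lower in FS22, at 4.90. In RB10 it was 10.40 and in NE45, labelled T-cell, 10.89, both within the normal range, while RB07 had 2.89. Results that rest on the labels are given with and without RB07, RB10 and FS22. Without them the B-cell label holds arrays of class E-J alone and the T-cell label arrays of class K-N alone.

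Many interleukin genes were dim. A signal of 100 was reached on at least 3 arrays by 42 of the 78 genes, on 1 or 2 arrays by 11 and on no array by 25. These counts, and "under 100" below, are of the gene value, and 6 of the 25 (IL17RC, IL1B, IL1RAPL1, IL20RB, IL22RA2 and IL4) had a single probe set that reached 100 on some array, at most 176.3. The 25 are IL10RA, IL12RB1, IL13, IL17A, IL17B, IL17F, IL17RC, IL1B, IL1F10, IL1RAPL1, IL1RAPL2, IL20RB, IL21R, IL22, IL22RA1, IL22RA2, IL25, IL26, IL27, IL29L, IL3, IL36B, IL36RN, IL4 and IL4R. They include receptor chains well known on lymphocytes, IL4R, IL21R and IL10RA, each read by 1 probe set. Their dim signals do not show how much of their RNA was present. IL15RA, the chain that binds IL-15, reached 100 only in RB07, with a log2 signal of 7.96. IL10RB, IL16, IL18, IL27RA, IL2RG, IL33, IL6ST and IL7R reached 100 on all 14 arrays. Among the 42 genes the median SD over the 10 lymphomas was 1.29 on the log2 scale, against 0.69 over all 9400 genes that passed the same filter, and their median level was lower, 6.42 against 8.02.

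**Figure D1:**
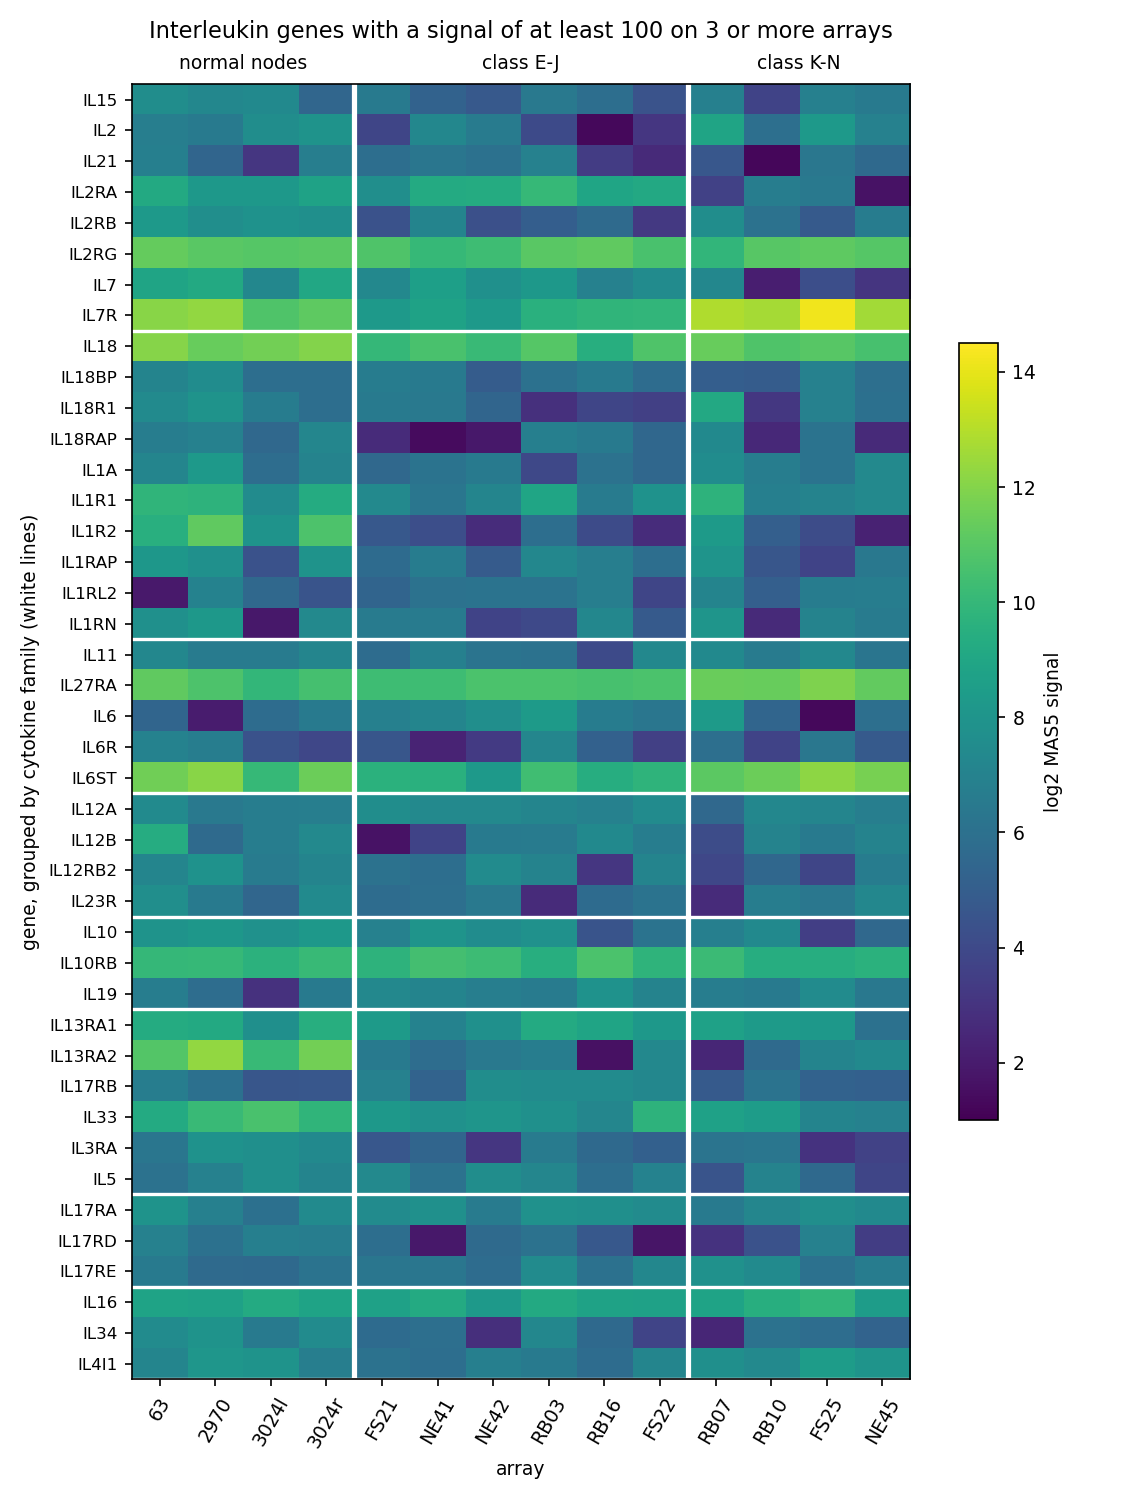
Log2 MAS5 signal of the 42 interleukin genes that reached a signal of 100 on at least 3 of 14 arrays, with a row per gene and a column per array. IL7R is brightest in the 4 arrays of class K-N and dimmer in class E-J than in the normal nodes, and IL1R2 and IL13RA2 are bright in the normal nodes and dim in nearly all lymphomas.

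Against the 3 normal dogs (63, 2970 and 3024r), the 10 lymphomas had lower IL1R2 and IL13RA2, each by about 6 units on the log2 scale, and no interleukin gene rose. With limma, 2 of the 41 genes tested were lower at an adjusted p under 0.05, where 3.85% of all 9295 genes tested were lower, and 0 were higher, where 1.19% of all genes were. At an unadjusted p under 0.05, 12 of the 41 were lower and 0 higher, against 13% and 7.75% of all genes. By the methods' t-test (Welch, gene by gene) 13 were lower and 0 higher after adjustment, against 10.9% and 4.35% of all genes. Without 3024r or 2970 none passed (10 and 9 at an unadjusted p under 0.05), and without RB07 6 did. Lower calls over all genes went from 358 to 42, 23 and 470 in that order. The median log2 difference was -1.32 over the 41 genes and -0.13 over all genes tested, and 33 of the 41 had a negative difference (80.5%, against 57.2% of all genes). The filter lets in 10 of the 41 genes that were bright in fewer than 3 lymphomas, IL1R2 among them. Centring each array on its median moved the median of all genes to 0.18 and that of the interleukin genes to -1.01. The split of calls over all genes, 111 higher and 358 lower, became 215 and 212 with this centring and 229 and 322 with quantile normalization.

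The same question was asked of the study's own B-cell set, FS21, NE42, RB03 and RB16, against the same 3 normals. IL1R2, IL13RA2, IL1R1, IL18 and IL33 were lower, as were IL7, IL7R and IL2RB of the common gamma chain family and the shared chain IL6ST. These 9 of 33 genes tested stood against 7.39% of all 8295 genes that were lower, and 0 were higher, against 3.48% of all genes. At an unadjusted p under 0.05, 14 genes were lower and 2 (IL6 and IL17RB) higher, against 17.6% and 12.3% of all genes. By the methods' t-test 0 of the 33 passed in either direction after adjustment, against 0.0603% of all genes lower and 0.0362% higher. The study used that test on this set with a looser false discovery threshold and another filter, so its counts are not comparable. The study kept these 4 dogs partly because their profiles showed little sign of T cells, so IL7R and IL2RB, both carried by T cells, are not independent evidence there. The comparison shares its normals with the one above. The filter lets in 14 of the 33 genes that were bright in fewer than 3 of the 4 lymphomas. Of these, IL1R2, IL2RB and IL1A were under 100 in all 4 lymphomas and entered the test through the normals alone. IL6 entered through the lymphomas alone, so a difference was needed for these genes to be tested. IL13RA2 reached 100 in 1 of the 4 lymphomas, and its normals alone met the filter. The calls of IL1R2, IL2RB and IL13RA2 add no support to the count. Without 63, 2970 or 3024r in turn, none of the 26 to 28 genes still tested passed, with 10 to 13 at an unadjusted p under 0.05. Lower calls over all genes fell as well, from 613 to 46, 9 and 12 in that order. With 3024l in place of 3024r, 4 passed (IL1R2, IL2RB, IL33 and IL7R). With all 78 genes tested and no filter, 3 passed (IL1R2, IL2RB and IL27, a gene under 100 on every array). The median difference was -1.39 over the 33 genes and -0.06 over all genes tested, and centring moved the latter to 0.26. The split over all genes, 289 higher and 613 lower, became 508 and 466 with centring and 400 and 535 with quantile normalization.

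**Figure D2:**
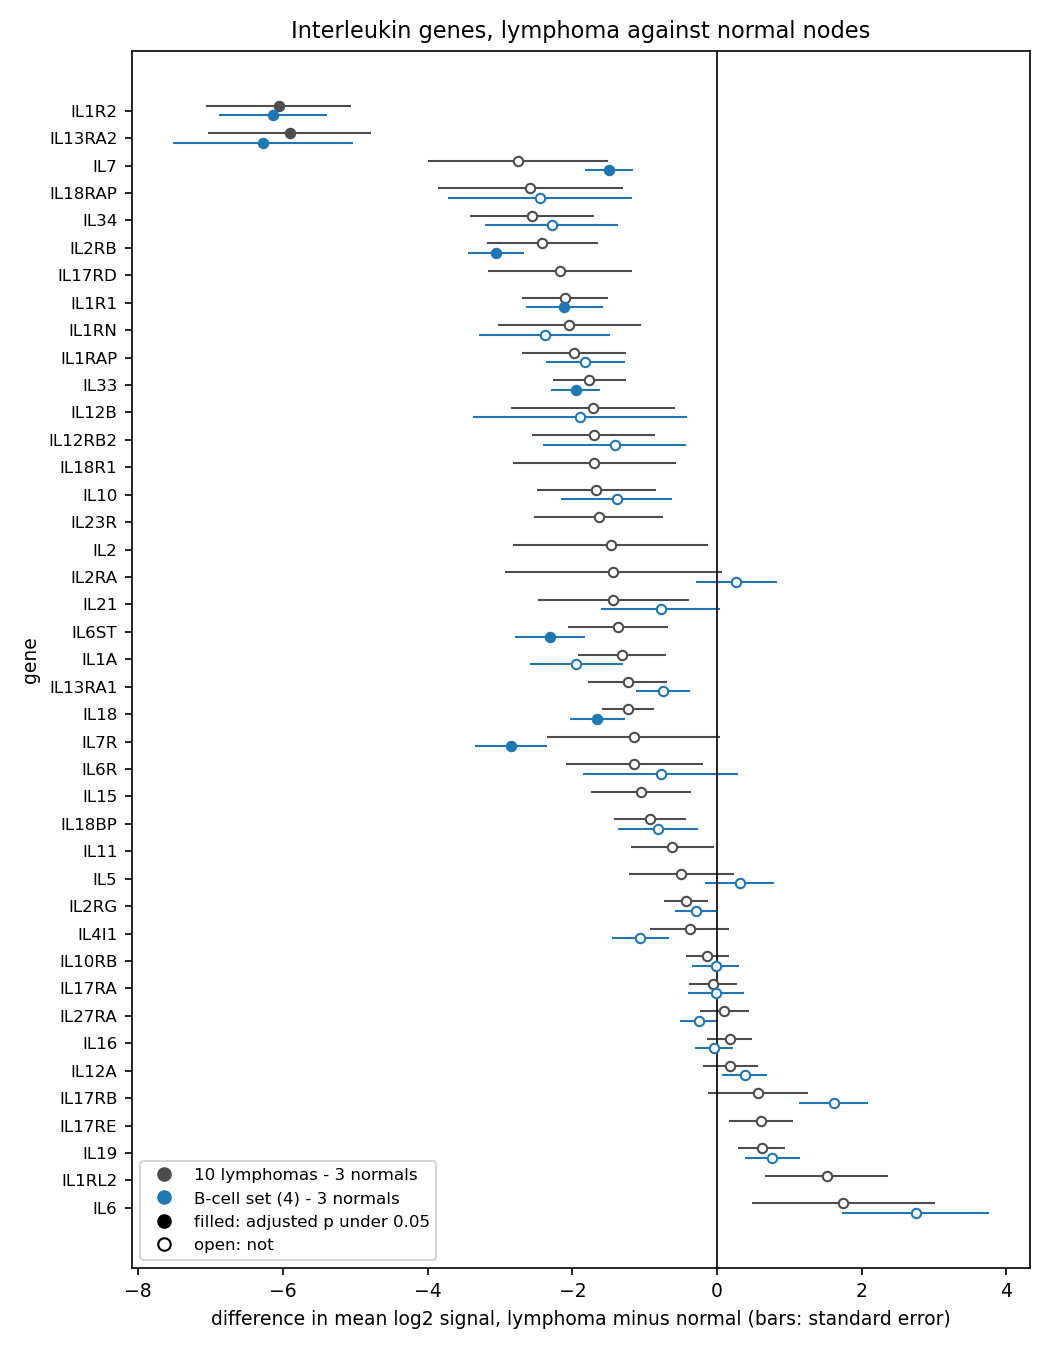
Difference in mean log2 signal (lymphoma minus normal) of the interleukin genes, with standard errors, for the 10 lymphomas (grey) and for the 4 lymphomas of the B-cell set (blue) against the same 3 normals. Filled points have a limma adjusted p under 0.05, which 2 genes reach in grey and 9 in blue, all to the left of 0.

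As counted here, the IL-1 family had 15 members, of which 10 passed the filter. For this count IL33, its receptor IL1RL1 and IL1F10, which also belong to the family, were placed in other groups. IL1R2, the decoy receptor for IL-1, had log2 signals of 9.50 in 63, 11.19 in 2970, 7.91 in 3024l and 10.75 in 3024r. In class E-J the lowest value was 2.71, the median 4.17 and the highest 5.86, and the arrays of class K-N had 8.36 in RB07, 5.08 in RB10, 4.12 in FS25 and 2.28 in NE45. Of the 10 lymphomas, RB07 alone reached a gene value of 100, and it lay above 3024l, while in RB10 1 of the 2 probe sets was over 100, at 7.18. The 10 lymphomas lay below the 3 tested normals by 6.06 (standard error 1.00, limma adjusted p = 0.0064). Because 9 lymphomas were under 100, the size rests on dim signals, and the difference was -3.64 with signals raised to at least 100. Both probe sets fell, by 6.64 and 5.48. In the B-cell set, where all 4 arrays were under 100, IL1R2 was at least 14.3-fold lower than in the normals (limma adjusted p = 0.0071, in a test it entered through the normals alone). Without 3024r or 2970 the adjusted p over the 10 lymphomas was 0.0540 and 0.0729.

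The mean of the macrophage markers was lower in both lymphoma classes than in the normals, while the mean of the neutrophil markers in class K-N lay within the range of the normals. The mean log2 signal of 11 macrophage and monocyte markers was 9.71 to 11.3 in the normal arrays, 7.14 to 8.65 in class E-J and 6.83 to 8.88 in class K-N. Of these markers CD163 and VSIG4 were under 100 on all arrays of class E-J, and VSIG4 on all of class K-N. Both were also under 100 in normal array 3024l, and neither put all lymphomas below all normals. MARCO, C1QA, C1QB, C1QC, CSF1R and MSR1 were lower in every lymphoma than in every normal array. For MARCO the lowest normal was 12.71 and the highest lymphoma 10.73. LYZ, CD14 and CD68 did not separate the groups. LYZ was 15.27 in RB16 and CD14 was 11.60 in RB07, above the highest normal values of 14.08 and 10.26. CD68 was 6.12 in normal node 63, within the range of the lymphomas. For 4 neutrophil markers the ranges of the mean were 6.28 to 10.1 in the normals, 4.71 to 6.70 in class E-J and 6.86 to 9.51 in class K-N, with CSF3R under 100 on all arrays. Normal node 63, with an IL1R2 signal of 9.50, had the 6.28, below the 7.98 of FS25, where IL1R2 was 4.12. RB07, the lymphoma with the highest IL1R2, also had the highest neutrophil value of the lymphomas, 9.51. The part of either cell type in the IL1R2 result was not tested.

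IL1R1, the receptor that does pass on the IL-1 signal, had log2 signals of 9.84 in 63, 9.73 in 2970, 7.49 in 3024l and 9.28 in 3024r. Class E-J ran from 6.31 through a median of 7.25 to 8.92, and class K-N held 9.70 in RB07, 6.81 in RB10, 7.03 in FS25 and 7.37 in NE45. RB07 lay among the normals, and 3024l lay within the range of the lymphomas. IL1R1 was lower by 2.11 in the B-cell set (standard error 0.53, limma adjusted p = 0.0458), and over all 10 lymphomas the difference was -2.11 with an adjusted p of 0.0612. IL1RAP, the co-receptor shared by IL-1, IL-33 and IL-36, had a difference of -1.98 over the 10 lymphomas (limma adjusted p = 0.137). Its probe sets differed, with -3.04 for the one and -0.92 for the other.

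IL18, a cytokine released after cutting by caspase-1 that drives interferon-gamma production, had log2 signals of 12.05 in 63, 11.34 in 2970, 11.62 in 3024l and 11.98 in 3024r. In class E-J the values ran from 9.46 through a median of 10.38 to 10.94, all below every normal array. Class K-N had 11.39 in RB07, 10.78 in RB10, 10.97 in FS25 and 10.56 in NE45, and RB07 lay just above 2970. IL18 was lower by 1.65 in the B-cell set (standard error 0.38, limma adjusted p = 0.0368), and both of its probe sets were lower over the 10 lymphomas, by 1.26 and 1.19. IL33, an alarm cytokine kept in the nuclei of stromal and endothelial cells, had log2 signals of 9.25 in 63, 10.18 in 2970, 10.60 in 3024l and 9.83 in 3024r. Class K-N lay wholly lower, at 8.71 in RB07, 8.46 in RB10, 7.07 in FS25 and 6.91 in NE45, and class E-J ran from 7.19 through a median of 7.92 to 9.71, the last in FS22. IL33 was lower by 1.96 in the B-cell set (standard error 0.34, limma adjusted p = 0.0185), and FS22 was the single lymphoma inside the range of the normals.

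The means of the stromal and of the endothelial markers were lower in the same lymphomas. The mean log2 signal of 9 stromal markers was 8.93 to 9.59 in the normal arrays, 5.78 to 7.41 in class E-J and 6.25 to 7.89 in class K-N. DCN and PDGFRB were under 100 on all arrays of class E-J, and PDGFRB on all of class K-N. Among the normals PDGFRB reached 100 only in 2970, at 7.72. For 7 endothelial markers the ranges of the mean were 8.39 to 8.74 in the normals, 5.89 to 7.67 in class E-J and 6.30 to 8.16 in class K-N. CDH5 and TEK were under 100 on every array. FS22, the lymphoma with the most IL33, had the highest stromal value of class E-J, 7.41. The part of these cells in the IL33 result was not tested.

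**Figure D3:**
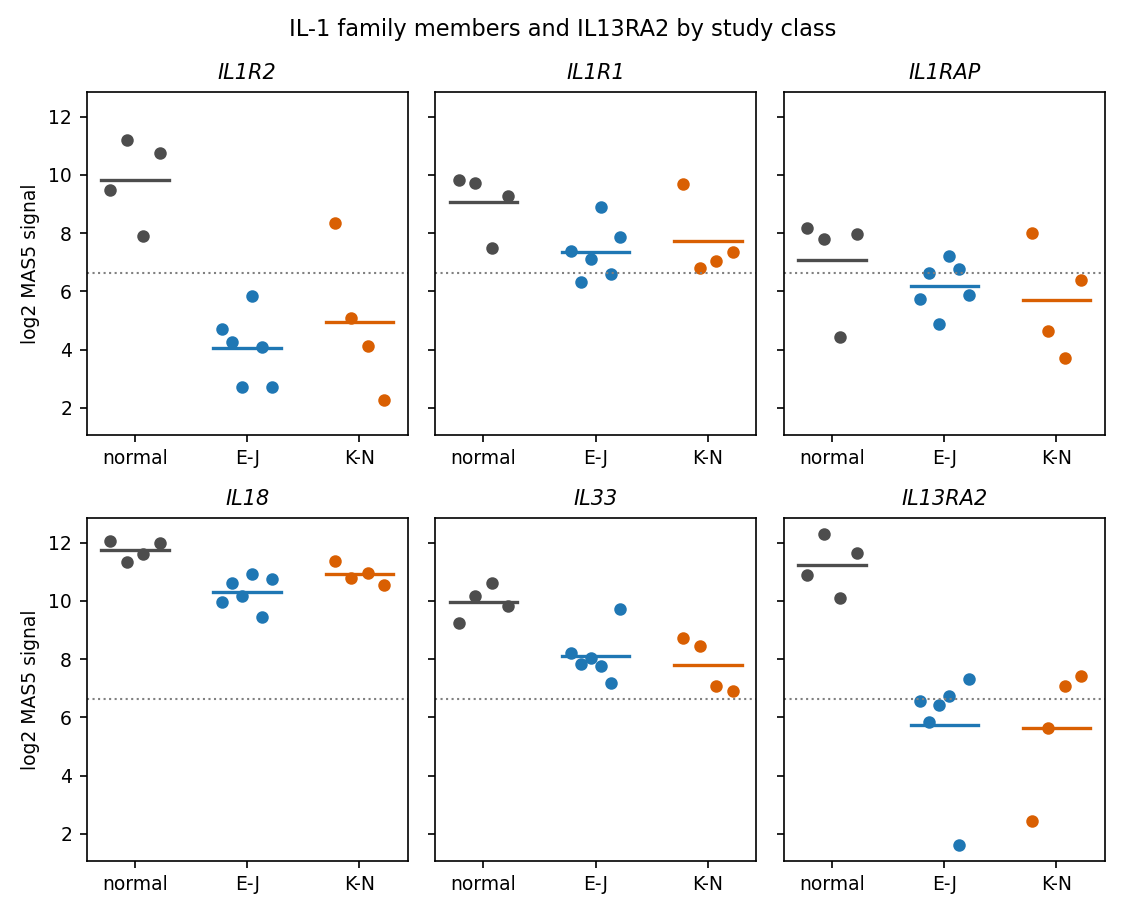
Log2 signal of 5 IL-1 family genes and IL13RA2 on each array, by normal nodes (4 arrays), class E-J (6 arrays) and class K-N (4 arrays). Horizontal bars are means and the dotted line is a signal of 100, and for IL13RA2 all 10 lymphomas lie below the lowest normal array at 10.11.

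IL13RA2, which binds IL-13 tightly and has long been called a decoy receptor, separated all lymphomas from all normals. Its log2 signal was 10.88 in 63, 12.31 in 2970, 10.11 in 3024l and 11.64 in 3024r. Class E-J ran from 1.61 in RB16 through a median of 6.50 to 7.32 in FS22, and class K-N had 2.43 in RB07, 5.65 in RB10, 7.07 in FS25 and 7.41 in NE45. Over the 10 lymphomas it was lower by 5.91 (standard error 1.12, limma adjusted p = 0.0127), and by 4.77 with signals raised to at least 100. The B-cell set gave a difference of -6.28 (standard error 1.25, limma adjusted p = 0.0251), in a test whose filter the normals alone met. Of its 4 lymphomas RB03 alone reached 100, so this size rests on dim signals. Without 3024r or 2970 the adjusted p over the 10 lymphomas was 0.0787 and 0.111. IL13RA1, the chain that forms the signalling IL-13 receptor with IL4R, had a difference of -1.24 over the 10 lymphomas (limma adjusted p = 0.215). The gene values of IL13 and IL4, the ligands, and of IL4R were under 100 on every array, with 1 probe set of IL4 at 7.20 in RB07.

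Among the receptors of the common gamma chain family, IL7R lay on opposite sides of the normals in the lymphoma classes. Its log2 signal was 12.09 in 63, 12.34 in 2970, 10.80 in 3024l and 11.14 in 3024r. Class E-J ran from 8.30 through a median of 9.16 to 9.88, below every normal array, and class K-N had 12.87 in RB07, 12.67 in RB10, 14.22 in FS25 and 12.61 in NE45, above every normal array. The class means were 9.11 and 13.09, against 11.59 for the normal arrays. Its probe sets agreed, and each had all of class E-J below and all of class K-N above the normals. IL7R was lower by 2.85 in the B-cell set (standard error 0.50, limma adjusted p = 0.0191). Over all 10 lymphomas, where the classes offset each other, the difference was -1.15 (standard error 1.19, limma adjusted p = 0.628).

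The mean of the T-cell markers followed the same order as IL7R, lowest in class E-J and highest in class K-N, as given above. CD5 was under 100 on all arrays of class E-J, and no T-cell marker was under 100 on all arrays of class K-N. Not every marker kept this order. CD8A was 6.74 in RB07, 4.37 in RB10, 5.90 in FS25 and 6.61 in NE45, of which only RB07 reached 100, against 6.595 to 7.357 in the normals. CD3D was 12.56 in RB16 of class E-J, above the highest normal value of 12.32. The part of T cells in the IL7R result was not tested.

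**Figure D4:**
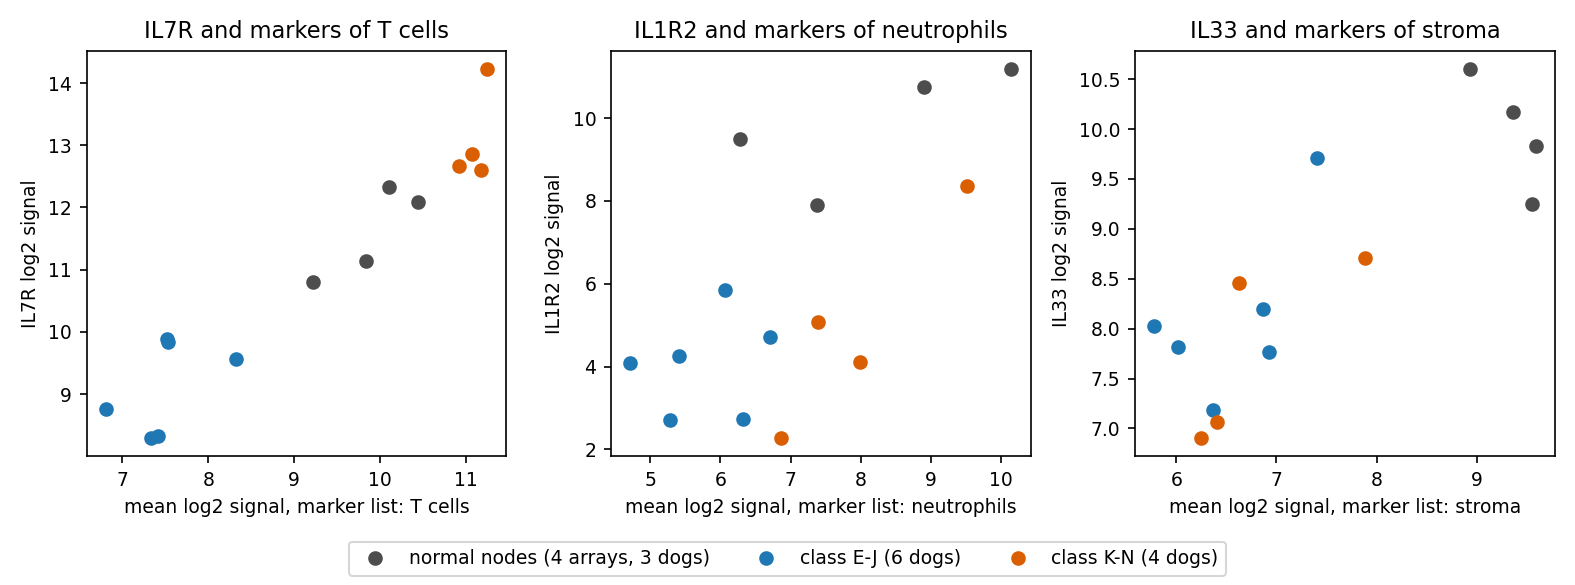
Log2 signal of IL7R, IL1R2 and IL33 (vertical axes) against the mean log2 signal of the markers of T cells, neutrophils and stroma (horizontal axes) on the 14 arrays, coloured by class. IL7R and the mean of the T-cell markers are both lowest in class E-J and both highest in class K-N, and RB07 is the class K-N array with an IL1R2 signal of 8.36 and a neutrophil marker value of 9.51.

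IL7, the ligand of IL7R, was dimmest in 3 of the 4 arrays of class K-N, where its receptor was brightest. It had log2 signals of 8.89 in 63, 9.21 in 2970, 7.27 in 3024l and 9.09 in 3024r, and class E-J ran from 6.96 through a median of 7.65 to 8.65. Class K-N had 7.26 in RB07, 2.15 in RB10, 4.22 in FS25 and 3.07 in NE45, and the last 3 of these were under 100, while RB07 was level with 3024l. IL7 was lower by 1.50 in the B-cell set (standard error 0.33, limma adjusted p = 0.0327). Over the 10 lymphomas the difference was -2.75 (limma adjusted p = 0.231), with every lymphoma below the 3 tested normals.

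The chains of the IL-2 receptor had different patterns. IL2RA (CD25), the chain that gives high affinity for IL-2, had log2 signals of 9.21 in 63, 8.19 in 2970, 8.18 in 3024l and 8.77 in 3024r, and class E-J ran from 7.66 through a median of 9.22 to 10.06. In class K-N it was 3.63 in RB07, 6.72 in RB10, 6.48 in FS25 and 1.66 in NE45, below every other array, and RB10 alone passed 100. IL2RB, which signals for IL-2 and IL-15, had log2 signals of 8.29 in 63, 7.70 in 2970, 7.86 in 3024l and 7.72 in 3024r, and all 10 lymphomas were lower. Class E-J ran from 3.24 through a median of 4.71 to 7.07 in NE41, and class K-N had 7.59 in RB07, 6.09 in RB10, 4.82 in FS25 and 6.65 in NE45. In the B-cell set, with all 4 gene values under 100, IL2RB was lower by 3.05 (standard error 0.39, limma adjusted p = 0.0079), in a test it entered through the normals alone. Single probe sets passed 100 in NE42, RB03 and RB16, so the size rests partly on dim signals. All 4 of its probe sets were lower over the 10 lymphomas, by 1.07 to 4.46, while the gene value there had an adjusted p of 0.0890.

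IL2, the T-cell growth factor itself, reached 100 on 7 arrays, and no comparison called it. It ran from 1.30 through a median of 3.93 to 7.22 in class E-J, and was 8.90 in RB07, 5.93 in RB10, 8.31 in FS25 and 6.93 in NE45. The normals had 6.77 in 63, 6.53 in 2970, 7.62 in 3024l and 7.96 in 3024r, so both classes overlapped with them. IL2RG, the common gamma chain itself, stayed between 9.89 and 11.3 on all 14 arrays. Its difference was -0.43 over the 10 lymphomas (standard error 0.30, limma adjusted p = 0.449) and -0.29 in the B-cell set (standard error 0.28, adjusted p = 0.509), and centring turned the latter to 0.03.

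NK-cell and cytotoxic markers, which include cells that carry IL2RB, had a mean log2 signal of 5.91 to 7.92 in the normal arrays, 4.33 to 6.85 in class E-J and 4.12 to 5.25 in class K-N. PRF1 and NCR1 were under 100 on all arrays of both classes, but among the normals they reached 100 only in 3024r, at 6.97 and 7.03. The part of these cells and of T cells in the IL2RB result was not tested.

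**Figure D5:**
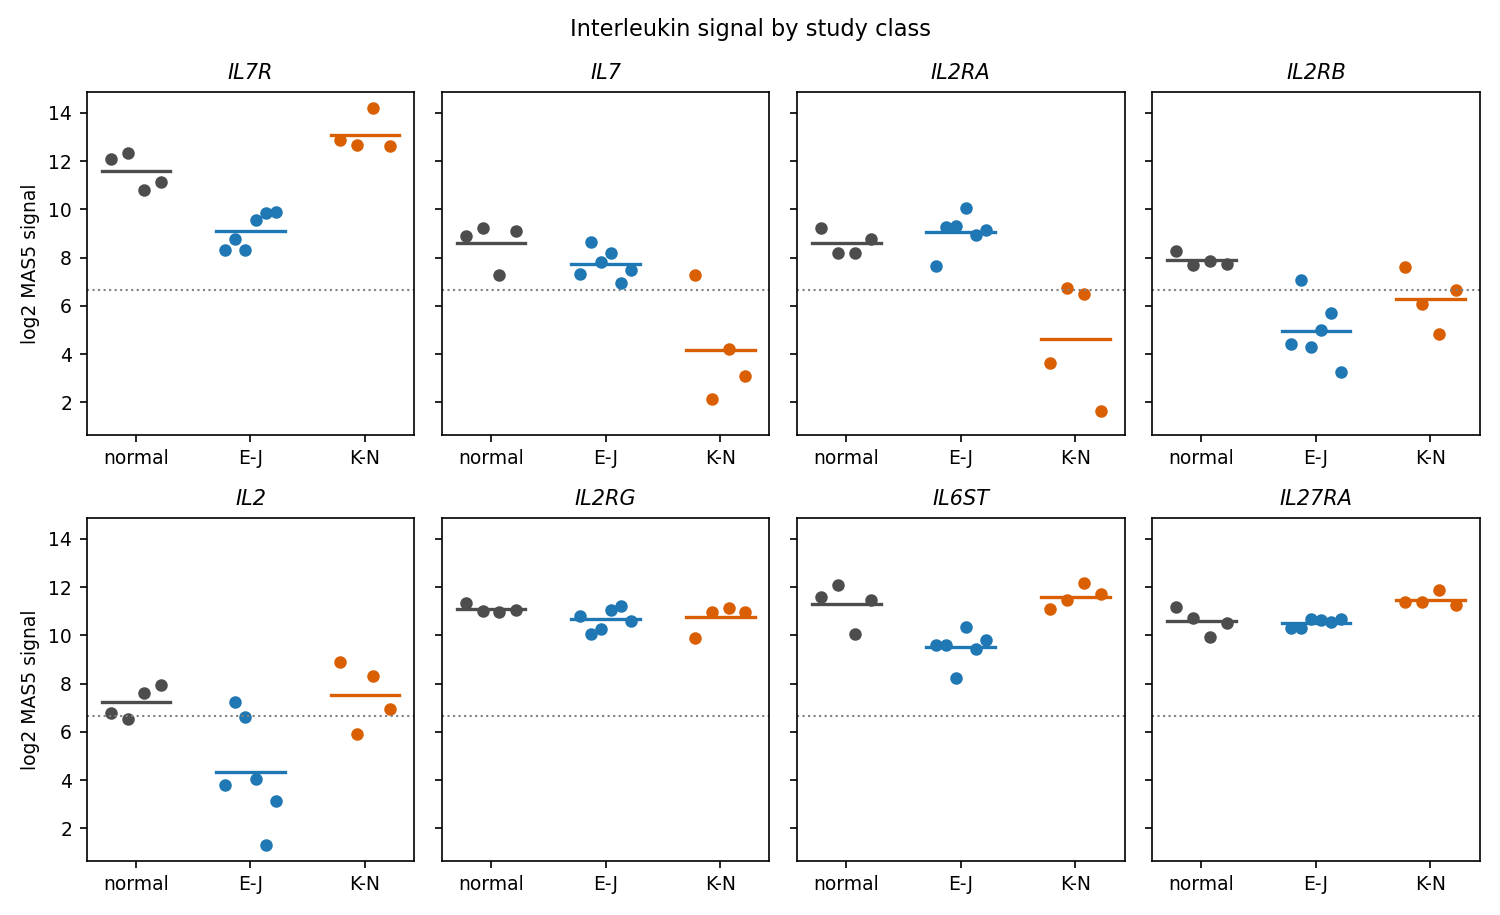
Log2 signal of 6 genes of the common gamma chain family, of gp130 (IL6ST) and of IL27RA on each array, by normal nodes (4 arrays), class E-J (6 arrays) and class K-N (4 arrays). Horizontal bars are means and the dotted line is a signal of 100; IL7R means are 11.59, 9.11 and 13.09, and IL2RA means are 8.59, 9.07 and 4.62.

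In the gp130 family, IL6ST and IL27RA were higher in class K-N than in class E-J. IL6ST, the signalling chain for IL-6, IL-11 and IL-27, had log2 signals of 11.58 in 63, 12.08 in 2970, 10.04 in 3024l and 11.47 in 3024r. Class E-J ran from 8.24 through a median of 9.59 to 10.36, and class K-N had 11.09 in RB07, 11.45 in RB10, 12.19 in FS25 and 11.71 in NE45. Class K-N thus lay within or just above the range of the normals, and class E-J overlapped with 3024l alone. IL6ST was lower by 2.31 in the B-cell set (standard error 0.48, limma adjusted p = 0.0284). IL27RA, which pairs with gp130 to receive IL-27 and is carried by T cells, was 11.40 in RB07, 11.38 in RB10, 11.88 in FS25 and 11.27 in NE45. Class E-J ran from 10.29 through a median of 10.61 to 10.70, and the normals from 9.93 in 3024l to 11.19 in 63, so class K-N lay above all other arrays by a small margin.

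IL6 and IL17RB were the genes of the B-cell set that lay wholly above its normals without passing the test after adjustment. IL6, a growth factor of plasma cells and activated B cells, was 6.87 in FS21, 7.70 in NE42, 8.38 in RB03 and 6.66 in RB16, against 5.39 in 63, 2.05 in 2970 and 6.53 in 3024r. All 3 of these normals were under 100, so IL6 entered the test through the lymphomas alone, and with the normals set at 100 it was at least 1.69-fold higher (limma adjusted p = 0.120). It passed after adding 50 to the signals (adjusted p = 0.0447). IL17RB, the receptor for IL-25, was 6.94 in FS21, 7.60 in NE42, 7.49 in RB03 and 7.54 in RB16, against 6.70 in 63, 5.997 in 2970 and 4.64 in 3024r. Its difference was 1.61 (standard error 0.48, limma adjusted p = 0.0720), and it passed with quantile normalization, with centring, after adding 50 and on averaging linear signals (limma adjusted p = 0.0344 to 0.0455). In the B-cell set each of its 3 probe sets had a higher mean than in the normals. Over the 10 lymphomas they did not have the same sign (1.92, -0.56 and 0.33).

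The classes can be summed up by the genes whose arrays did not overlap, out of the 42 that passed the filter. Class E-J lay wholly below the 4 normal arrays for IL13RA2, IL18, IL1R2, IL2RB and IL7R, 5 genes, where 7.97% of all 9400 genes did so, and wholly above for 0, against 7.26% of all genes. Without 3024l, the array with the high GAPDH ratio, 13 of the 42 lay wholly below, with IL1A, IL1R1, IL1RAP, IL1RN, IL23R, IL34, IL6ST and IL7 in addition, where the share of all genes rose to 14.2%. Class K-N lay wholly below the normals for IL10, IL13RA2, IL2RA, IL2RB, IL33, IL34 and IL7, 7 genes, against 9.12% of all genes, and wholly above for IL27RA and IL7R, 2 genes, against 6.93%. Class K-N lay wholly above class E-J for IL27RA, IL4I1, IL6ST and IL7R, 4 genes, against 4.45% of all genes, and wholly below it for IL2RA, 1 gene, against 6.26%.

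Of the genes in these lists not described so far, IL10 restrains inflammation, IL34 is a second ligand of the macrophage receptor CSF1R, and IL4I1 is a secreted enzyme that breaks down amino acids. IL10 had log2 signals of 7.93 in 63, 8.16 in 2970, 7.82 in 3024l and 8.20 in 3024r, and 6.83 in RB07, 7.41 in RB10, 3.53 in FS25 and 5.56 in NE45. IL34 was 7.53 in 63, 7.91 in 2970, 6.50 in 3024l and 7.49 in 3024r, and 2.46 in RB07, 6.09 in RB10, 5.84 in FS25 and 5.32 in NE45, all 4 of them under 100. IL4I1 ran from 5.79 through a median of 6.28 to 7.17 in class E-J, below the 7.73 in RB07, 7.33 in RB10, 8.45 in FS25 and 7.98 in NE45. The normals overlapped with both classes for IL4I1, at 6.78 to 8.11.

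Some genes had a narrow range across normals and lymphomas. IL10RB, the chain shared by the receptors for IL-10 and IL-22, ran from 9.41 to 10.7 over the 14 arrays, and IL16, a chemoattractant for CD4+ cells, from 8.29 to 9.91. In the B-cell set their differences were -0.02 (standard error 0.32) and -0.05 (standard error 0.26). At the other end IL2RA had the highest SD among the 10 lymphomas, 2.75, followed by IL2 with 2.45 and IL18RAP, a chain of the IL-18 receptor, with 2.34.

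The labels put 7 lymphomas as B-cell against 3 as T-cell. None of the 31 interleukin genes tested differed by limma at an adjusted p under 0.05, and of all 8567 genes tested 0% were higher and 0% lower in the B-cell group. At an unadjusted p under 0.05, 3 of the 31 passed. IL6 and IL10 were higher in the B-cell group, against 2.29% of all genes, and IL4I1 had a difference of -1.28, against 1.37% of all genes that were lower. IL6 and IL10 were under 100 in all 3 T-cell lymphomas and entered the test through the B-cell group alone, and with the T-cell group set at 100 they were at least 1.49-fold and 1.29-fold higher. The methods' t-test gave 2 at an unadjusted p under 0.05 and 0 after adjustment. IL13RA2 lay lower in all 7 B-cell lymphomas than in the 3 T-cell lymphomas, and had an unadjusted p of 0.0731 with an adjusted p of 0.956 from limma. For IL7R the difference was -2.19 (standard error 1.23, limma adjusted p = 0.956).

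Without RB07, RB10 and FS22, whose marker means go against their labels, 5 B-cell lymphomas were set against FS25 and NE45. IL7 was higher in the B-cell lymphomas by 4.14 (standard error 0.54, limma adjusted p = 0.0106), 1 of 24 genes tested, against 2.47% of all genes. IL7R, IL4I1 and IL6ST were lower, 3 of the 24, against 0.928% of all genes, with IL7R lower by 4.46 (standard error 0.60, limma adjusted p = 0.0106). IL4I1 was lower by 2.01 (adjusted p = 0.0337) and IL6ST was lower by 2.51 (adjusted p = 0.0485), also from limma. The 5 B-cell lymphomas kept are all of class E-J, and FS25 and NE45 are both of class K-N. This split thus follows the classes, which were drawn from these same profiles. Its p-values are not independent evidence for any of these genes. These arrays were also kept for their T-cell and B-cell markers, so genes carried by T cells such as IL7R are not independent of the choice. With 2 T-cell arrays the spread is mostly that of the B-cell lymphomas.

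Genes that carry the interleukin signal inside the cell, with further cytokine chains, were counted beside the share of all genes. Of 31 JAK, STAT, SOCS and PIAS genes and further cytokine chains, 29 were on the array. LIFR, the partner of gp130 in the receptor for leukaemia inhibitory factor, was lower over the 10 lymphomas by 3.77 (standard error 0.71, limma adjusted p = 0.0126). It was 1 of 21 genes tested, against 3.85% of all genes that were lower, and 0 were higher, against 1.19%. By the methods' t-test 6 were lower and 0 higher, against 10.9% and 4.35% of all genes. In the B-cell set LIFR was lower by 3.33 (limma adjusted p = 0.0169) and STAT3, the factor activated through gp130, by 0.94 (limma adjusted p = 0.0346). They were 2 of 20 tested, against 7.39% of all genes that were lower, with 0 higher, against 3.48%. By the methods' t-test there were 0 in either direction, against 0.0603% lower and 0.0362% higher. At an unadjusted p under 0.05, 6 genes were lower in each comparison, against 13% of all genes over the 10 lymphomas and 17.6% in the B-cell set. These were LIFR, OSMR, SOCS2, SOCS6 and STAT3 in both, with STAT5B over the 10 lymphomas and STAT4 in the B-cell set. STAT5A, which signals below IL-2 and IL-7, was the 1 gene higher at that threshold in both, against 7.75% and 12.3% of all genes. Its differences were 1.04 (limma adjusted p = 0.0648) and 1.00 (limma adjusted p = 0.0803). Of 15 genes that relay the IL-1 and IL-18 signal, 11 were on the array and none of 8 tested was called by limma over the 10 lymphomas. There, at an unadjusted p under 0.05, PYCARD and IRAK4 were lower, against 13% of all genes, and the methods' t-test called 1 lower, against 10.9%. PYCARD, the adaptor of the inflammasome, was lower by 2.32 in the B-cell set (standard error 0.36, limma adjusted p = 0.0135), 1 of 7 tested, against 7.39% of all genes. Neither list had a gene called by limma or by the methods' t-test between the labelled B-cell and T-cell lymphomas. At an unadjusted p under 0.05, PTPN6 was higher in the B-cell group, against 2.29% of all genes, and SOCS5 lower, against 1.37%.

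Probe sets of the same gene did not always move together. Of 17 genes that passed the filter and had more than 1 probe set, all probe sets had the same sign over the 10 lymphomas for 10, and signs differed for IL10RB, IL15, IL17RA, IL17RB, IL17RE, IL4I1 and IL5. IL15, a survival factor for NK cells and memory T cells, had differences of 0.15 and -2.25 in its probe sets. IL17RA, the shared chain of the IL-17 receptors, had 1.78, -0.74 and -1.20, so the gene values of these 7 rest on the average taken.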

How the data were processed

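RNA from lymph node aspirates was amplified (WT-Ovation Pico) and hybridised by the authors, each aspirate to its own GeneChip Canine Genome V2.0 array. The deposited values are intensity per probe set on a linear scale, which the authors summarised with MAS 5.0 (version not given in the sources used here) and scaled to a trimmed mean of 500 per array. Of 43035 probe sets, 29254 had exactly 1 symbol in the array's gene table, 439 had several, 13332 had none and 111 were controls. Log2 signals were averaged per symbol with no further scaling between arrays. Of the 78 interleukin genes, 77 matched RefSeq by gene identifier under the same symbol. No sequences and no genome coordinates were used.

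Genes with a signal of at least 100 on at least 3 arrays of a comparison were fitted together (R 4.3.3, limma 3.58.1, its lmFit and eBayes functions, two-sided), with Benjamini-Hochberg adjustment over all genes tested and a threshold of 0.05. "At least" folds set the dim group at a signal of 100. Each dog entered with 1 array, 3024r for dog 3024. Precision is limited by how many arrays there are. The fit was tested on simulated data with known changes. Figures were drawn with matplotlib 3.10.9.

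The genes named were those called in any comparison, those whose class arrays did not overlap with the normals with a mean difference of at least 1, shared chains and growth receptors. The others (IL27RA, IL4I1, IL6, IL10RB, IL16, IL15, IL17RA, IL18RAP, IL13RA1, IL2 and those given with counts) were chosen after their values were seen. The members and lists were chosen with earlier results of these data known. Alternatives changed the filter, the offset, a floor on signals, the scaling, the gene summary, the test, the array of dog 3024 and the arrays in the fit.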

Additional observations from a re-analysis of the deposited data

Results flagged for a closer look

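IL7R lay below the 4 normal arrays in all of class E-J and above them in all of class K-N, with a difference of 3.98 between the class means; that difference was not tested, since the classes were drawn from these profiles.

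Dixon's test was applied to 20 of the genes in 4 groups, 80 sets of values, and flagged 8; chance flags about 1 in 20. Array 3024l, which had the high GAPDH ratio, was the lowest normal for IL1RAP (log2 signal 4.42, next 7.79) and for IL7 (7.27, next 8.89). RB16 was the lowest of the labelled B-cell lymphomas for IL10 (4.49, next 6.83) and of class E-J for IL13RA2 (1.61, next 5.84). RB10 was the lowest labelled B-cell lymphoma for IL7 (2.15, next 6.96). NE41 was the lowest of class E-J for IL17RB (5.28, next 6.94). In class K-N, RB07 was the lowest for IL2RG (9.89, next 10.96) and FS25 the highest for IL7R (14.22, next 12.87). IL10 and IL13RA2 in RB16, IL7 in RB10, IL1RAP in 3024l and IL17RB in NE41 are signals under 100, where the order of values says little.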

How the results depend on the processing

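The count of interleukin genes called was sensitive to how dim signals were treated and to the few normals. Over the 10 lymphomas it went from 2 to 5 with a filter at 200, 8 after adding 50 before the log, 11 after raising signals to a floor of 100, 6 on averaging linear signals, 4 on taking the brightest probe set and 13 by the methods' t-test. Over all genes, lower calls went from 358 to 379, 689, 809, 472, 299 and 1015 under the same alternatives in that order. Leaving out 1 array at a time gave 0 to 6, with 0 without 3024r or 2970 (10 and 9 genes at an unadjusted p under 0.05) and 6 without RB07. Lower calls over all genes were then 42, 23 and 470. In the B-cell set it went from 9 to 3 with no filter, 16 after adding 50, 0 by the methods' t-test (11 at an unadjusted p under 0.05), 4 when 3024l replaced 3024r and 3 with all 13 dogs in 1 fit, an alternative chosen after seeing the data, while lower calls over all genes went from 613 to 161, 1076, 5, 167 and 288. Leaving out 1 array gave 0 to 10, with 0 without any of 63, 3024r and 2970, where 10 to 13 genes had an unadjusted p under 0.05 and IL1R2 and IL2RB fell out of the test. Without these normals in turn, lower calls over all genes were 46, 12 and 9. Between labelled B-cell and T-cell lymphomas the count was 4 without RB07, RB10 and FS22, also chosen after seeing the data, and 0 in every other alternative tried (0 to 0 on leaving out 1 array). The 4 come from a split that follows the classes, so they are not independent evidence. For genes wholly apart between classes, class E-J lay below the normals for 8 genes after adding 50, 9 on averaging linear signals, 8 with the floor and 13 without 3024l, and above for 1 with quantile normalization and 1 with centring. Class K-N lay below class E-J for 2 genes with quantile normalization, with centring and with the floor, and below the normals for 11 on averaging linear signals. Of 711 differences of single genes under these alternatives, 599 kept their direction and their side of the threshold, 65 lost the call, 45 gained it and 2 changed sign. The one for IL2RG in the B-cell set turned to 0.031 with centring, and the one for IL2RA turned to -0.088 without RB03 (main value 0.27). The causes were not tested. The fit of all 14 arrays with dog as a block gave no value, since limma's duplicateCorrelation returned a correlation for 0 of 9400 genes with 1 repeated dog. No paired analysis was possible because no dog gave both a lymphoma and a normal node.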

Other observations

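IL20RA, a receptor chain for IL-19, IL-20 and IL-24, was under 100 on 13 arrays, with log2 signals of 1.88 to 6.26, and was 10.90 in RB10. It did not enter the tests, and it was chosen after its values were seen. The gene value of IL20RB, its usual partner chain, was under 100 on every array, with 1 probe set at 6.79 in RB07. IL18R1, which binds IL-18, was 9.12 in RB07, the highest of the 14 arrays, where it ran from 2.85 to 7.92 on the other 13. IL12B, the p40 chain of IL-12 and IL-23, was 9.34 in normal node 63 and at most 7.43 on the other 13 arrays. IL1RL1, the receptor of IL-33, reached a gene value of 100 in RB07 alone, at 7.22, and 1 of its probe sets was 6.98 in RB03.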
